A study of Mus musculus with 6 samples.

Results

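The transcript levels of 10 neuropeptide precursor genes were described in whole hippocampus, taken after an electrically evoked seizure from mice lacking Tet1 and from wild-type mice. The genes were the rows of the deposited expression table whose symbol is Npy, Sst, Cck, Penk, Pdyn, Tac1, Vip, Crh, Gal or Adcyap1, and all were found among 23361 gene rows. The Tet1-deficient group, labelled Tet1Δe4-/-, held 3 libraries from mice homozygous for a deletion in Tet1, which encodes a dioxygenase that oxidises 5-methylcytosine. The wild-type group, labelled Tet1+/+, held 3 libraries. All mice of both genotypes had been given electroconvulsive shock (18 mA at 100 Hz, pulses of 0.2 ms, 1.15 seconds), and tissue was taken 1.5 to 2 hours later. The sources used here give no strain or age, and libraries of unshocked mice were not analysed here, so the values carry no measure of induction by the shock. Levels are FPKM (fragment numbers corrected for transcript length and for the size of the library), and differences are Tet1-deficient minus wild-type on the log2(FPKM + 1) scale.

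Neuropeptides are cut from larger precursor proteins, packed into dense-core vesicles and released mainly during strong firing, after which they act on G protein-coupled receptors. In the hippocampus most of them mark classes of GABAergic interneuron. Dynorphin and enkephalin are also made by dentate granule cells, and galanin is known for damping glutamate release and seizures in rodents.

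The windows around the transcription start sites are shown first, because Tet1 acts on methylated CpG sites and because several of these genes are textbook targets of the activity-dependent factor CREB, which binds the cyclic AMP response element TGACGTCA. No methylation or binding was measured here. RefSeq start sites (build GRCm38.p6) were matched for 8 of the 10 genes, with 10 windows of 300 bases, 250 before and 50 after the start. Penk and Crh had no entry. The printed windows are those of Gal and of the first Pdyn start, the genes whose genotypes did not overlap, and of Sst, Vip and Tac1, as examples of windows with the element or its short form TGACG upstream of the start. Capitals mark TGACGTCA and TGACG on either strand, and a short form inside a full element is part of it.
Gal: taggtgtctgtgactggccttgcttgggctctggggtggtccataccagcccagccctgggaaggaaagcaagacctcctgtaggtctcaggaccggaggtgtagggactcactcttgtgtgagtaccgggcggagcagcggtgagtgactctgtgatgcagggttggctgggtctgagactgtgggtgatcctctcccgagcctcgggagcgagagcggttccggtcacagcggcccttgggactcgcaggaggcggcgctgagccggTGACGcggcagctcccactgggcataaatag
Pdyn: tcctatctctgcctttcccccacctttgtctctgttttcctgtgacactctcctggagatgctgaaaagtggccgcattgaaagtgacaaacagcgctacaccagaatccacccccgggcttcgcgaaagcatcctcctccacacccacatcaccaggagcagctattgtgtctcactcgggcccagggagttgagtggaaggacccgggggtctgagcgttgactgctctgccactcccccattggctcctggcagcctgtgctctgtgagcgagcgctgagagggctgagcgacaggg
Sst: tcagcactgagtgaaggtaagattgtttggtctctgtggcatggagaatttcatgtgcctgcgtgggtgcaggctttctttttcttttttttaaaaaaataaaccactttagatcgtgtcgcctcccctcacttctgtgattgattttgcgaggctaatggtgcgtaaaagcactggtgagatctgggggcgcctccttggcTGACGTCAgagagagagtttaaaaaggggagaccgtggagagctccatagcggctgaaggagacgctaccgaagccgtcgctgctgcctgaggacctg
Vip: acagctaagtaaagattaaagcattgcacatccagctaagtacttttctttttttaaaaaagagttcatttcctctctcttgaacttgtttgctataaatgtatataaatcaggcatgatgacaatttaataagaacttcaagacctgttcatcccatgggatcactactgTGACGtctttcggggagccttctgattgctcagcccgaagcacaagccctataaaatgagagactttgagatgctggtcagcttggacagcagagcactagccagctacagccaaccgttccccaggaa
Tac1: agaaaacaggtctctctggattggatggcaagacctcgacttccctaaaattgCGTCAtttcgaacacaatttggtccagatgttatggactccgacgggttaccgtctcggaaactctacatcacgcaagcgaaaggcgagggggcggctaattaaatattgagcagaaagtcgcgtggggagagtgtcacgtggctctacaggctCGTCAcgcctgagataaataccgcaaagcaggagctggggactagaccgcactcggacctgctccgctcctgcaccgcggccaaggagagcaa

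The Gal window lies at chr19:3414495-3414794 on the minus strand and the Pdyn window at chr2:129699889-129700188 on the minus strand. The Sst window lies at chr16:23890795-23891094 (minus), the Vip window at chr10:5638968-5639267 (plus) and the Tac1 window at chr6:7554811-7555110 (plus). Sst held the full element, beginning 48 bases upstream of its start, a match present in 1.79% of 32851 windows. The short form, on either strand and also within full elements, was present in 20.8% of windows. It lay 79 bases upstream in Vip, 43 and 197 bases upstream in Tac1, 47 bases upstream in Cck and, in Gal, 19 bases downstream of the start. In Adcyap1 (PACAP) it lay 91 and 242 bases upstream in the 2 windows. These windows overlap, and both positions are the same site counted from different starts. Neither Pdyn window nor the Npy window held these letters. The TATA box letters TATAAA, present in 13.6% of windows on either strand, occurred in the Vip window and in the second Adcyap1 window. The window of Gal held 16 CpG sites, more than 67.0% of all windows did, whose median was 7. The Pdyn windows held 11 and 5 CpG sites, the Npy window 24, the Tac1 window 22, the Sst window 13, the Cck window 10 and the Vip window 4. The 10 windows therefore ran from CpG-poor to CpG-rich, and the windows of Gal and Pdyn lay inside that range.

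**Figure D1:**
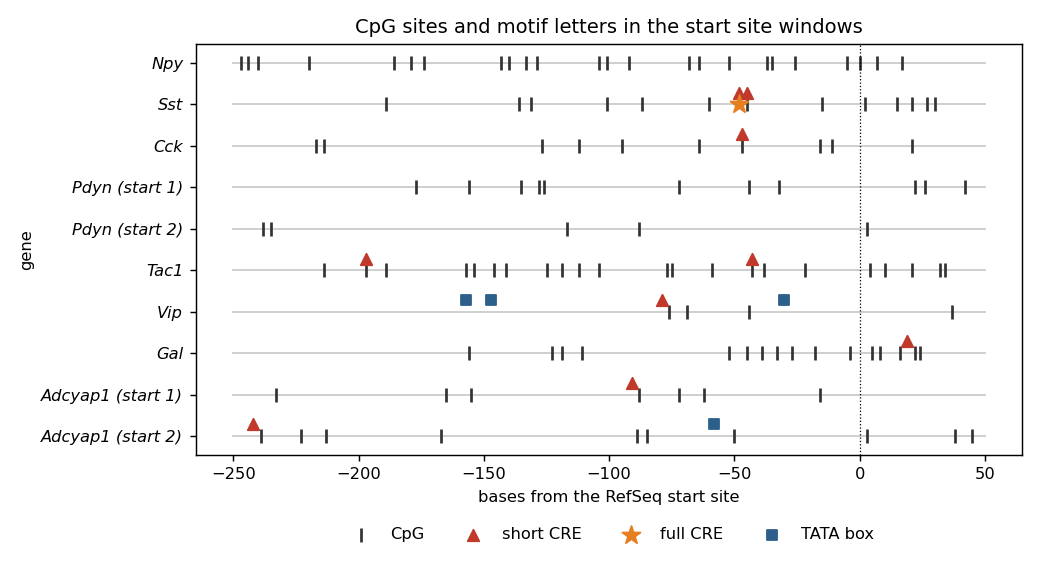
Positions of CpG sites, of the full cyclic AMP response element (full CRE), of its short form on either strand (short CRE) and of a TATA box on either strand in the 10 start site windows, in bases from the RefSeq start site, with 1 line per window. Npy has 24 CpG sites and Vip 4, and the full element occurs in Sst alone among these windows.

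The levels spanned a wide range. Averaged over all 6 libraries, Sst (somatostatin, released by dendrite-targeting interneurons) measured 249.5 FPKM, Cck (cholecystokinin, of basket cells and pyramidal neurons) 244 FPKM and Npy (neuropeptide Y, which restrains glutamate release) 91.0 FPKM. Together these genes made up 92.8% to 94.7% of the summed FPKM of the 10 genes in Tet1-deficient libraries, against 93.2% to 94.8% in wild-type libraries. Below them came Penk (proenkephalin) at 10.6 FPKM, Vip (vasoactive intestinal peptide, of interneurons that target other interneurons) at 8.62 FPKM, Pdyn (prodynorphin) at 6.40 FPKM and Tac1 (the substance P precursor) at 5.62 FPKM. Adcyap1 (PACAP) measured 2.62 FPKM, Crh (corticotropin-releasing hormone) 1.27 FPKM and Gal (galanin) 0.831 FPKM. In this order the ranges over 6 libraries overlapped between Sst and Cck, between each neighbouring pair from Penk to Tac1, and between Crh and Gal. The ranges of Cck and Npy, Npy and Penk, Tac1 and Adcyap1, and Adcyap1 and Crh did not overlap. The gene counted by the Penk row overlaps A830012C17Rik on the opposite strand in GENCODE M21, and without a stated strand setting reads of this pair cannot be told apart.

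**Figure D2:**
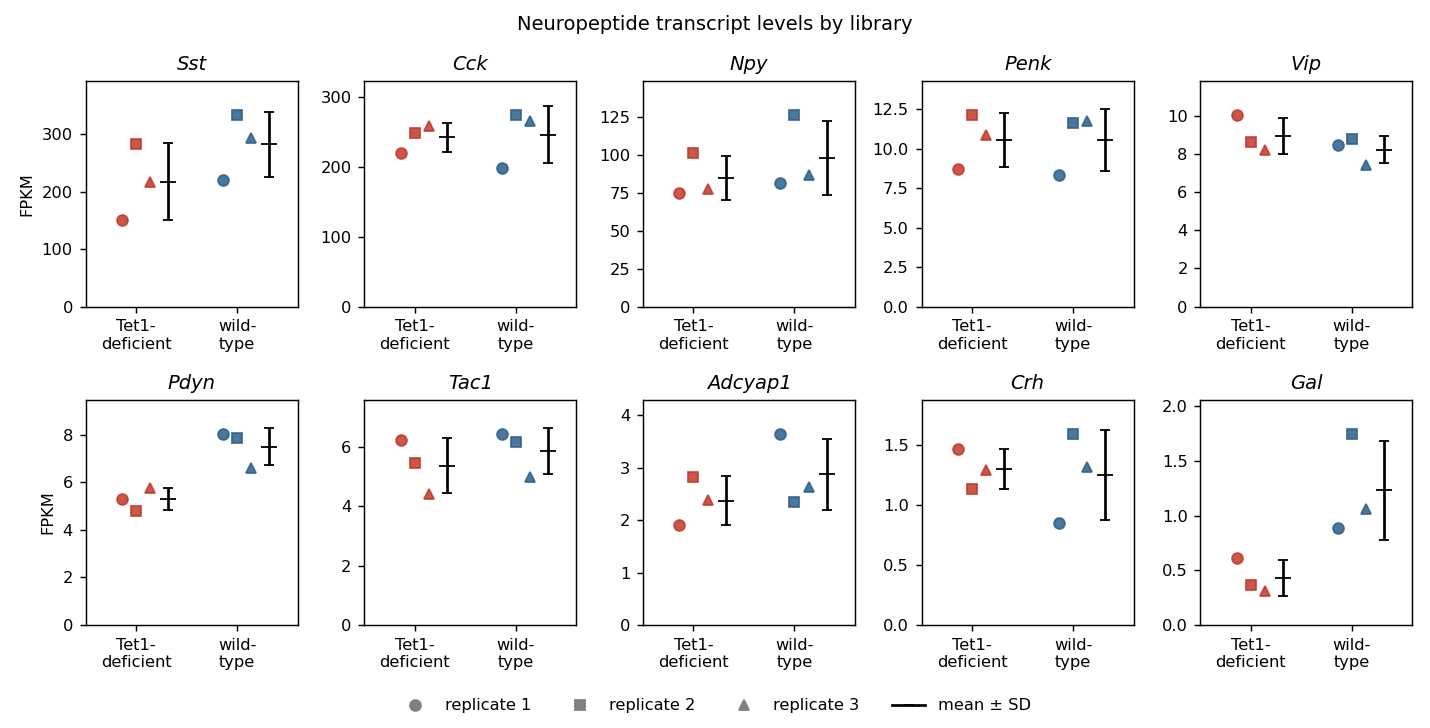
FPKM of each neuropeptide gene in every library, Tet1-deficient at the left (red) and wild-type at the right (blue) of each panel, with the group mean and SD (n = 3) as a black bar; each panel has its own axis from 0. Pdyn and Gal are the genes whose groups do not overlap, with all Tet1-deficient libraries below all wild-type libraries.

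Several facts of the whole set of libraries touch these values. Tet1 itself measured 0.740, 0.685 and 0.638 FPKM in Tet1-deficient libraries and 0.977, 0.718 and 0.897 FPKM in wild-type libraries. A gene-level value over all exons does not check the deletion. Replicate 1 of each genotype stood apart from the other 4 libraries on the first principal component, which held 53.3% of the variance. Wild-type replicate 1 was also the one library with Xist (63.5 FPKM, against at most 0.202 FPKM in the other 5) and without Y-linked transcripts (Ddx3y 0.0381 FPKM, against at least 16.7 FPKM in the other 5). Its title alone carries an f, where the others carry an m.

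Of the 10 neuropeptide genes 7 were lower and 3 higher in Tet1-deficient hippocampus, and 0 passed the threshold, an adjusted p under 0.05 in limma over the 12533 genes that averaged 1 FPKM or more. Gal lies under that level, and its values come from a fit of this model to the 19123 genes above 0 in any library. The background share of genes called was 0.0319% in the first fit and 0.0209% in the second. Without adjustment, Pdyn and Gal had a p under 0.05, as did 1.36% of genes in the first fit and 2.84% in the second, or 0.918% and 2.03% when genes lower in Tet1-deficient hippocampus are counted alone. The median log2 difference was −0.11 over the 9 tested neuropeptide genes and 0.0055 over all tested genes, of which 47.1% were below 0. Groups lay apart, with Tet1-deficient lower, for Pdyn and Gal, that is 2 of 10 genes, as they did for 2.21% of tested genes and 3.7% of all genes above 0. In the other direction they lay apart for none of the 10 and for 1.91% of tested genes, and in either direction for 4.13% of tested genes and 5.82% of all genes above 0. The shares of all genes above 0 include the tested genes, so genes under 1 FPKM, where Gal lies, lay apart more often than these shares.

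**Figure D3:**
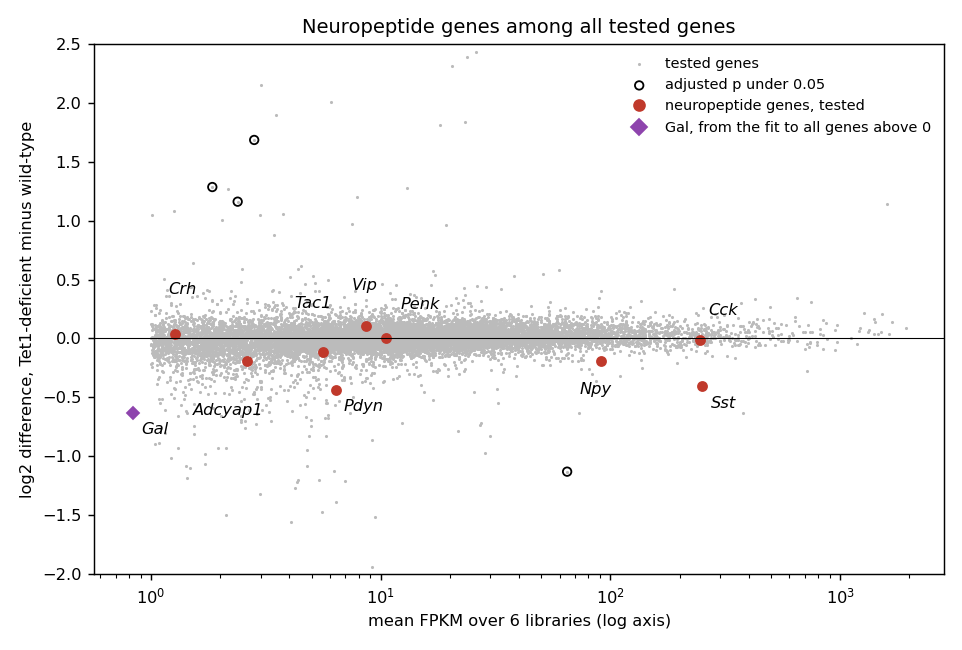
Log2 difference of each gene (vertical) against its mean FPKM over 6 libraries (horizontal, log axis), with tested genes in grey, the 4 genes past the adjusted threshold ringed, the tested neuropeptide genes in red and Gal, from the fit to all genes above 0, as a purple diamond. Pdyn, Sst and Gal lie furthest below 0 among the neuropeptide genes, and 11 tested genes fall outside the vertical limits of −2 and 2.5.

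Galanin transcript was scarce, and it had the widest separation of the 10 genes. Gal measured 0.613, 0.368 and 0.310 FPKM in Tet1-deficient libraries, against 0.889, 1.75 and 1.06 FPKM in wild-type libraries. The highest Tet1-deficient library thus stayed below the lowest wild-type library, and wild-type replicate 2 was well above the rest. Means were 0.430 ± 0.161 FPKM in Tet1-deficient and 1.23 ± 0.455 FPKM in wild-type hippocampus (SD, n = 3 each), so the Tet1-deficient mean was 35.0% of the wild-type mean. The log2 difference was −0.63 (SE 0.16, unadjusted limma p 0.00629, adjusted p 1.00), and it did not pass the threshold. The exact permutation p over libraries, two-sided, was 0.1, which is the smallest that 3 libraries against 3 allow. Since 1 FPKM added to such low values compresses the difference, it was −1.32 with 0.1 FPKM added instead. Without wild-type replicate 2 it was −0.47, and without the Xist-bearing wild-type replicate 1 it was −0.74. In whole tissue, fewer galanin-expressing cells and less transcript per cell cannot be told apart. Gal occupies 3409915 to 3414544 on chromosome 19 (mm10), is protein-coding and overlaps no other annotated gene.

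Galanin is also made by noradrenergic and hypothalamic neurons, so their markers are given beside it. The 6 noradrenergic markers summed to 1.99 to 2.71 FPKM in Tet1-deficient libraries and 2.03 to 2.61 FPKM in wild-type libraries, and most of each sum was the vesicular transporter gene Slc18a2, at 1.71 to 2.41 and 1.62 to 2.17 FPKM in that order. Th, the gene of tyrosine hydroxylase, was lower in Tet1-deficient libraries on average, at 0.143, 0.156 and 0.118 FPKM, against 0.221, 0.151 and 0.265 FPKM in wild-type libraries, with overlap (log2 difference −0.089, unadjusted limma p 0.0619, adjusted p 1.00). Dbh, the gene of the enzyme that makes noradrenaline, measured 0.149 to 0.152 FPKM in Tet1-deficient and 0.135 to 0.224 FPKM in wild-type libraries. The 12 hypothalamic markers summed to 2.60 to 3.52 and 2.62 to 6.30 FPKM in the same order of genotypes, with Hmx2 listed at 0 throughout. Outside wild-type replicate 1, most of each sum was Pomc and Cartpt. Pomc measured 0.807 to 1.15 and 0.753 to 1.38 FPKM, and Cartpt 0.861 to 1.52 and 0.621 to 0.947 FPKM, in that order. The 6.30 FPKM belonged to wild-type replicate 1, where Avp (vasopressin) measured 2.20 FPKM, against at most 0.106 FPKM in the other 5 libraries, and Oxt (oxytocin) 1.40 FPKM, against at most 0.0897 FPKM, and the other wild-type sums were 2.62 and 2.90 FPKM. All 8 meningeal fibroblast markers were lower in Tet1-deficient hippocampus, 0 of them past the threshold and 0 with an unadjusted limma p under 0.05 (median log2 difference −0.59), and summed to 40.5 to 59.5 FPKM there and 41.4 to 104 FPKM in wild-type libraries. By library, the fibroblast sums were 50.8, 59.5 and 40.5 FPKM in Tet1-deficient replicates 1 to 3 and 104, 41.4 and 98.4 FPKM in wild-type replicates 1 to 3. Gal measured 0.613, 0.368 and 0.310 FPKM and 0.889, 1.75 and 1.06 FPKM in the same order. The part of these cells in the Gal difference was not tested.

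The galanin receptors were rarer still. Galr1, which couples to inhibitory G proteins, measured 0.0383, 0.0772 and 0.0750 FPKM in Tet1-deficient libraries, against 0.214, 0.163 and 0.185 FPKM in wild-type libraries. These groups did not overlap either (log2 difference −0.16, SE 0.027, unadjusted limma p 0.000849), and the adjusted p was 0.507. Galr2 measured 0.404, 0.179 and 0.242 FPKM in Tet1-deficient and 0.318, 0.353 and 0.299 FPKM in wild-type libraries, with overlap. Galr3 was listed at 0 in 2 of 3 Tet1-deficient libraries and 1 of 3 wild-type libraries, and was at most 0.0569 FPKM. Depth is unknown, and values of this size rest on few fragments.

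Prodynorphin was the other gene with separate groups. Pdyn measured 5.32, 4.80 and 5.76 FPKM in Tet1-deficient libraries, against 8.04, 7.85 and 6.62 FPKM in wild-type libraries. Each Tet1-deficient value was lower than every wild-type value, and the spread within each genotype was small. Means were 5.29 ± 0.477 and 7.50 ± 0.768 FPKM (SD, n = 3 each) in that order, and the Tet1-deficient mean was 70.5% of the wild-type mean. The log2 difference was −0.43 (SE 0.11, unadjusted limma p 0.00542), with an adjusted p of 1.00, so it did not pass over all genes. It ran from −0.51 to −0.35 over 14 alternatives, and its unadjusted p stayed between 0.00216 and 0.0246. Its exact two-sided permutation p was also 0.1. Pdyn lies at 129686565 to 129699844 on chromosome 2 (mm10) and is protein-coding.

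The dynorphin receptor gene Oprk1, which encodes the kappa opioid receptor, measured 0.280, 0.229 and 0.217 FPKM in Tet1-deficient libraries and 0.547, 0.334 and 0.348 FPKM in wild-type libraries. Its groups did not overlap (log2 difference −0.18, unadjusted limma p 0.0279, adjusted p 1.00). Of 12 markers of dentate granule cells, which make dynorphin, 8 were higher and 4 lower in Tet1-deficient hippocampus, 0 past the threshold, with a median log2 difference of 0.047. Prox1, which defines these cells, measured 21.1, 42.7 and 29.8 FPKM in Tet1-deficient and 21.1, 33.4 and 34.8 FPKM in wild-type libraries. Per unit of Prox1, Pdyn was 0.253, 0.112 and 0.193 in Tet1-deficient libraries and 0.381, 0.235 and 0.190 in wild-type libraries, with overlap. Of 5 tested striatal markers 3 were higher and 2 lower, and 0 passed. Of the lower, Rgs9 measured 2.23, 3.01 and 2.81 FPKM in Tet1-deficient libraries and 3.34, 4.66 and 3.93 FPKM in wild-type libraries. It was the 1 tested striatal marker without overlap and with an unadjusted limma p under 0.05 (log2 difference −0.43, p 0.0160). Groups lay apart, with Tet1-deficient lower, for 2.21% of tested genes, and 1.36% had an unadjusted limma p under 0.05. Wild-type replicate 1, the library with the most Avp and Oxt, also had the highest Pdyn value, with wild-type replicate 2 close to it. The part of cell content in the Pdyn difference was not tested.

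Proenkephalin, the other opioid precursor, showed no such separation. Penk measured 8.72, 12.1 and 10.9 FPKM in Tet1-deficient libraries and 8.30, 11.6 and 11.7 FPKM in wild-type libraries. Replicate 1 was the lowest in each genotype. Its log2 difference (0.0040, SE 0.17) was far inside the spread between libraries. The ratio of Pdyn to Penk was 0.610, 0.397 and 0.530 in Tet1-deficient libraries and 0.968, 0.675 and 0.564 in wild-type libraries, with overlap. Oprd1, the delta opioid receptor gene that enkephalin acts on, averaged 2.82 ± 0.346 FPKM in Tet1-deficient and 3.47 ± 0.548 FPKM in wild-type hippocampus (SD, n = 3 each), a log2 difference of −0.22 that did not pass (unadjusted limma p 0.123, adjusted p 1.00).

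**Figure D4:**
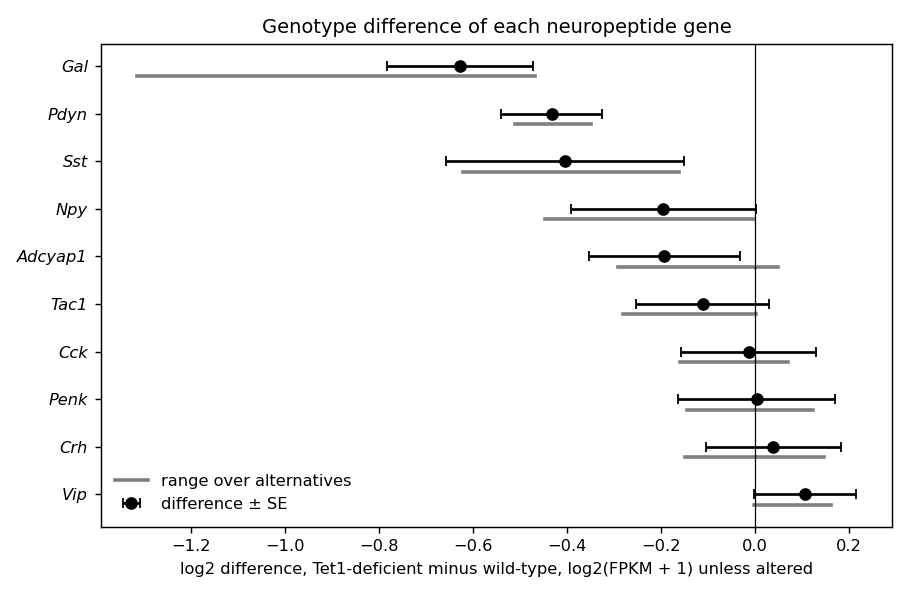
Log2 difference of each neuropeptide gene (Tet1-deficient minus wild-type), as points with SE, and its range over the alternative settings as grey lines. Gal reaches −1.32 where 0.1 FPKM was added in place of 1; the ranges of Gal, Pdyn, Sst and Npy stay below 0 and the other ranges cross it.

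Somatostatin had the largest difference among the abundant peptides, and its groups overlapped. Sst measured 149.8, 284 and 217 FPKM in Tet1-deficient libraries, against 220.3, 332 and 294 FPKM in wild-type libraries. Replicate 1 was the lowest in each genotype, and Tet1-deficient replicate 1 was the lowest of all. The Tet1-deficient mean was 76.9% of the wild-type mean, and the log2 difference of −0.40 (SE 0.25) did not pass (unadjusted limma p 0.155, adjusted p 1.00). When a term for the library split was added, an alternative chosen after seeing the data, the SE narrowed to 0.11 and the unadjusted limma p to 0.00972, with an adjusted p of 0.593. Without Tet1-deficient replicate 1 the difference was −0.16, and without Tet1-deficient replicate 2 it was −0.62 (unadjusted limma p 0.0386, adjusted p 1.00). Under estimated library weights it was −0.49 (unadjusted limma p 0.00270, adjusted p 0.189). Per unit of Gad1, the gene of the GABA-synthesising enzyme, Sst was 1.61, 2.66 and 2.23 in Tet1-deficient libraries and 2.04, 3.07 and 2.74 in wild-type libraries.

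The somatostatin receptor genes all had a negative log2 difference, and 0 of 5 passed. Sstr4, the most abundant, averaged 44.4 ± 6.94 FPKM in Tet1-deficient and 46.2 ± 2.33 FPKM in wild-type hippocampus (SD, n = 3 each). Sstr1 averaged 6.18 ± 1.80 and 9.01 ± 1.96 FPKM in that order (unadjusted limma p 0.0638), and Sstr5 had values without overlap at no more than 0.138 FPKM in any library. Cortistatin, encoded by Cort, is a close relative of somatostatin that binds the same receptors. Cort measured 3.08, 5.32 and 5.42 FPKM in Tet1-deficient libraries and 5.53, 8.25 and 7.51 FPKM in wild-type libraries. Its groups did not overlap, though the highest Tet1-deficient and the lowest wild-type value were close. The log2 difference was −0.54 (SE 0.21, unadjusted limma p 0.0392, adjusted p 1.00).

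Neuropeptide Y and cholecystokinin overlapped between the genotypes. Npy measured 74.7, 101 and 77.4 FPKM in Tet1-deficient libraries and 81.0, 126 and 86.5 FPKM in wild-type libraries. Its log2 difference was −0.20 (SE 0.20). It was −0.0012 without wild-type replicate 2, −0.33 without Tet1-deficient replicate 2, −0.32 without wild-type replicate 1, and −0.45 under estimated library weights (unadjusted limma p 0.0160, adjusted p 0.369). Cck measured 219.6, 249 and 259 FPKM in Tet1-deficient libraries and 199, 274 and 266 FPKM in wild-type libraries, a log2 difference of −0.013 (SE 0.14). For Npy, Cck, Sst and Penk alike, replicate 1 held the lowest value of its genotype. The 14 activity-induced genes split evenly between the directions (7 each), and by limma 0 passed and 0 had an unadjusted p under 0.05. Among their receptors, Npy2r, a presynaptic inhibitor of release, averaged 14.7 ± 2.68 and 15.8 ± 4.51 FPKM, and Cckbr 3.29 ± 0.783 and 3.85 ± 0.608 FPKM, in Tet1-deficient and wild-type hippocampus (SD, n = 3 each).

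**Figure D5:**
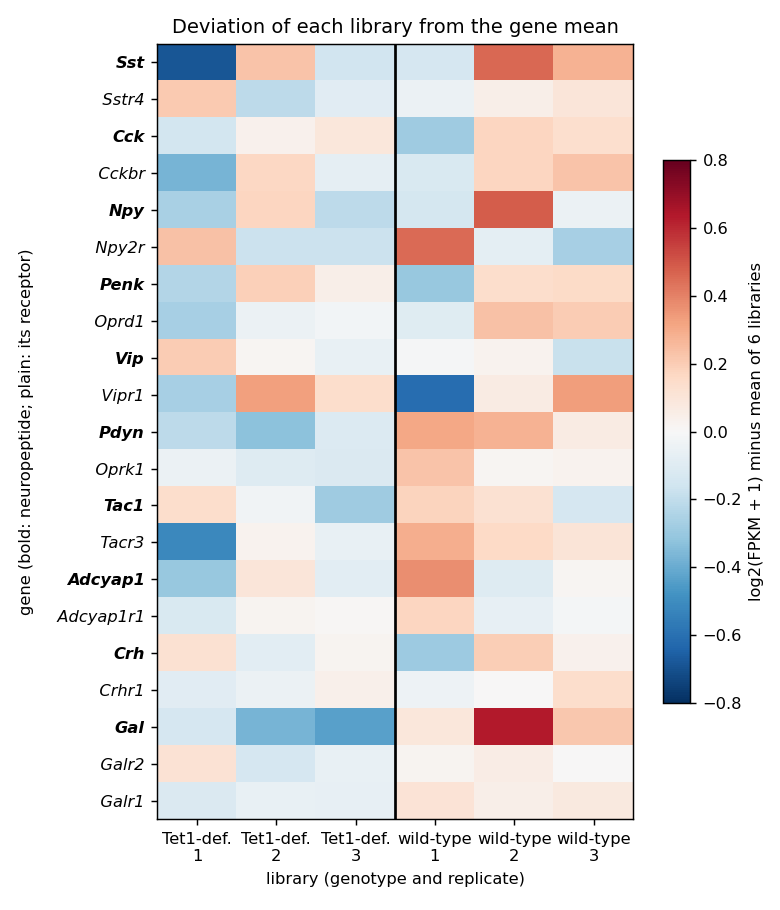
Deviation of each library from the gene's mean over 6 libraries on the log2(FPKM + 1) scale (colour), for each neuropeptide gene (bold) and its most abundant receptor, with Galr1 added; Tet1-deficient libraries are at the left of the black line and wild-type libraries at the right. Pdyn and Gal are below their mean in all Tet1-deficient libraries, while Sst, Cck, Npy and Penk are lowest in replicate 1 of each genotype.

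For the remaining peptides the groups overlapped and the differences did not pass (unadjusted limma p at least 0.269 in the model used). Vip measured 10.1, 8.68 and 8.22 FPKM in Tet1-deficient libraries and 8.51, 8.80 and 7.46 FPKM in wild-type libraries, a log2 difference of 0.11 (SE 0.11). Tac1 measured 6.24, 5.46 and 4.41 FPKM in Tet1-deficient libraries and 6.44, 6.16 and 4.98 FPKM in wild-type libraries, a log2 difference of −0.11 (SE 0.14). Replicate 1 was highest and replicate 3 lowest for Tac1 in each genotype. Adcyap1 measured 1.90, 2.83 and 2.39 FPKM in Tet1-deficient libraries and 3.65, 2.35 and 2.63 FPKM in wild-type libraries. Its highest value belonged to the Xist-bearing library, and the log2 difference of −0.19 (SE 0.16) was 0.049 in the 4 libraries that lay close together. Crh measured 1.46, 1.13 and 1.29 FPKM in Tet1-deficient libraries and 0.848, 1.59 and 1.31 FPKM in wild-type libraries, a log2 difference of 0.039 (SE 0.14).

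The receptors of these peptides were found with varied levels. Tacr3, the neurokinin receptor gene with the highest level, measured 0.606, 1.35 and 1.21 FPKM in Tet1-deficient libraries and 1.81, 1.56 and 1.47 FPKM in wild-type libraries, without overlap (log2 difference −0.36, SE 0.16, unadjusted limma p 0.0561). Vipr1 averaged 8.33 ± 1.89 and 7.67 ± 2.69 FPKM, Crhr1 2.58 ± 0.172 and 2.75 ± 0.250 FPKM, and the PACAP receptor gene Adcyap1r1 31.6 ± 1.81 and 33.0 ± 3.00 FPKM, in Tet1-deficient and wild-type hippocampus (SD, n = 3 each). Of all 26 listed receptor genes, 13 were tested, with 10 lower and 3 higher in Tet1-deficient hippocampus and a median log2 difference of −0.068. By limma 0 passed and 0 had an unadjusted p under 0.05. The other 13 were above 0 but under 1 FPKM, with 11 lower and 2 higher. Galr1, Oprk1 and Sstr5 were the ones with an unadjusted limma p under 0.05. The share over all genes above 0 was 2.84%, or 2.03% when lower genes are counted alone. Groups lay apart, with Tet1-deficient lower, for Tacr3, Galr1, Oprk1 and Sstr5, that is 1 of 13 tested genes and 3 of 13 under that level. The shares were 2.21% of tested genes and 3.7% of all genes above 0. Since the latter include the tested genes, genes under that level lay apart more often than 3.7%.

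Other precursors and the machinery of peptide processing gave 0 calls. Of 47 genes listed as further neuropeptide precursors, among them the binding protein gene Crhbp, 11 were listed at 0 in every library and 10 were tested, with 5 lower and 5 higher. One of the 10, Cort, had an unadjusted limma p under 0.05, as did 1.36% of all tested genes. Crhbp, whose protein binds corticotropin-releasing hormone, measured 10.1, 11.2 and 8.71 FPKM in Tet1-deficient libraries and 9.81, 12.3 and 12.1 FPKM in wild-type libraries. Nppc, the C-type natriuretic peptide gene, averaged 3.73 ± 0.450 and 3.00 ± 0.459 FPKM, and Cartpt 1.23 ± 0.335 and 0.822 ± 0.176 FPKM, in Tet1-deficient and wild-type hippocampus (SD, n = 3 each). All 14 genes of prohormone processing and granins were tested, 9 higher and 5 lower, with a median log2 difference of 0.046. Unadjusted limma p-values were at least 0.321. Cpe, a carboxypeptidase that trims peptide precursors, averaged 1531 ± 69.5 and 1469 ± 39.3 FPKM. The convertase inhibitor gene Pcsk1n averaged 92.5 ± 3.01 and 83.4 ± 17.2 FPKM, the amidating enzyme gene Pam 51.8 ± 5.22 and 55.3 ± 4.01 FPKM, and Scg3 137 ± 5.92 and 131 ± 2.11 FPKM, in the same order.

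Interneuron markers other than the peptides lay slightly lower in Tet1-deficient hippocampus. Of 19 tested, 16 were lower and 3 higher, with a median log2 difference of −0.078, and by limma 0 passed and 0 had an unadjusted p under 0.05. Their summed level was 406 to 471 FPKM in Tet1-deficient and 449 to 485 FPKM in wild-type libraries. Gad1 measured 93.1, 107 and 97.4 FPKM in Tet1-deficient libraries and 108, 108 and 107 FPKM in wild-type libraries, without overlap (log2 difference −0.12, unadjusted limma p 0.200). Kit, whose groups did not overlap either, averaged 14.5 ± 0.800 and 16.5 ± 0.843 FPKM, and Reln 5.93 ± 1.98 and 7.25 ± 0.488 FPKM, in Tet1-deficient and wild-type hippocampus (SD, n = 3 each). All 8 markers of CA1 pyramidal cells were lower in Tet1-deficient hippocampus (median log2 difference −0.13), and again 0 passed and 0 had an unadjusted limma p under 0.05. Of 7 tested markers of CA3 pyramidal cells, 5 were higher and 2 lower (median log2 difference 0.076), and 0 passed. Iyd, the listed CA3 marker under 1 FPKM, was lower without overlap, as were 3.7% of all genes above 0. It measured 0.682, 0.469 and 0.620 FPKM in Tet1-deficient libraries and 1.25, 1.17 and 0.863 FPKM in wild-type libraries. Its log2 difference was −0.39 (unadjusted limma p 0.00501, adjusted p 0.935). The part of cell content in the peptide differences was not tested.

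The tested genes whose library pattern lay nearest that of Gal, by the root mean square difference of log2 deviations over 6 libraries, were Pcdhga12, Ldhd, Pcdhga3, Gpr83 and Pcdhga6, at 0.178 to 0.187 where the deviations of Gal itself were 0.366. Pcdhga12, Pcdhga3 and Pcdhga6 are gamma protocadherins, adhesion proteins whose transcripts share their last exons, so their values are not separate. Ldhd, a lactate dehydrogenase gene, measured 2.96, 2.97 and 2.83 FPKM in Tet1-deficient libraries and 5.63, 8.41 and 5.93 FPKM in wild-type libraries. Gpr83, a G protein-coupled receptor gene, measured 4.11, 3.47 and 3.66 FPKM in Tet1-deficient libraries and 5.64, 5.64 and 5.73 FPKM in wild-type libraries. Genes near Gal were chosen by this likeness, so their genotype differences are a description.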

How the data were processed

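RNA-seq of whole hippocampus gave 1 library per mouse, 3 per genotype; that each library is a separate mouse follows the design text. Gene-level FPKM values deposited by the authors were used as they stand, and the submitters' processing notes name TopHat2 (2.0.9), Cufflinks (2.1.1) and build mm10. The annotation, strand setting and filters behind them were not given in the sources used here. Low values were examined for steps that whole reads would leave. For 362 genes between 0 and 0.03 FPKM in replicate 1 of each genotype, no ratio between these libraries, to 3 decimals, was shared by more than 5 genes. Read depth is therefore unknown, and no interval that needs counts is given.

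Values were taken as log2(FPKM + 1), which understates differences of low genes. Genotypes were compared by limma 3.58.1 (R 4.3.3, intensity trend, no covariate, two-sided), with Benjamini-Hochberg adjustment over every tested gene, a threshold of 0.05 and a minimum mean of 1 FPKM. Genes under that mean were read from a second fit without it, on all genes above 0. The fit with the minimum mean was tested on simulated data, with changes larger than those of the neuropeptide genes and placed in abundant genes. The second fit, small changes and scarce genes were not simulated. Exact permutation tests (20 splits) used scipy 1.17.1. Start site windows come from RefSeq (GRCm38.p6) and loci from GENCODE M21; Npy4r, Uts2b and Drd1 were matched through RefSeq synonyms.

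Alternatives were the pseudocount, the filter, median-of-ratios and quantile scaling, no trend, library weights, a threshold of 0.1 and leaving out each library; a term for the library split and a fit to the other 4 libraries were added after seeing the data. The neuropeptide genes and the marker, receptor and precursor lists were chosen with earlier results of these data known. Named are the 10 genes, the most abundant receptor of each, the galanin receptors, the 4 smallest p of the precursor, processing and interneuron lists, and the 5 genes nearest Gal. Sstr1, Sstr5, Rgs9, Iyd, Pomc and the genes of the other observations were chosen after their values were seen. Prox1, Dbh, Th, Slc18a2, Hmx2, Avp and Oxt stand as cell type markers. Some genes that this rule names are not reported here.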

Additional observations from a re-analysis of the deposited data

How the results depend on the processing

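No neuropeptide gene was called under any alternative run, and no receptor or other precursor gene that met the level filter of a run was called. Receptor and other precursor genes under 1 FPKM were counted only in the alternative without the filter, where 0 were called. Over all genes the count was 4 in the model used, 59 under estimated library weights and 8 when the split was a term. It was 13 in the 4 libraries close on the first component, and 0 to 6 when 1 library was left out. The direction of Gal, Pdyn, Sst and Npy was the same in every alternative run; Gal lay between −0.74 and −0.47 when 1 library was left out. Directions of the smaller differences turned, and the cause was not tested. Cck was 0.0074 with median-of-ratios scaling and −0.16 to 0.070 with 1 library left out. Penk was −0.068 with library weights, −0.026 in the 4 libraries and −0.15 to 0.12 with 1 library left out. Crh was −0.11, −0.15 and −0.10 to 0.15 in the same settings. Tac1 was −0.21 to 0.0016 with 1 library left out, and −0.28 with library weights (unadjusted limma p 0.0180, adjusted p 0.383). Vip was −0.0018 with library weights and Adcyap1 0.049 in the 4 libraries. Read depth is unknown, which limits genes of low level such as Gal and its receptors. No paired analysis was possible because the replicate numbers only name libraries in their order of deposit, and the numbers in the titles are shared by 1 library of each genotype at most.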

Other observations

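Scarce precursor genes not yet described, chosen after their values were seen, held a few separate groups. Calca, the gene of calcitonin and calcitonin gene-related peptide, measured 1.01, 1.08 and 1.09 FPKM in Tet1-deficient libraries and 0.681, 0.266 and 0.729 FPKM in wild-type libraries, a log2 difference of 0.42 in the fit to all genes above 0 (unadjusted limma p 0.0143, adjusted p 1.00). Prok2, of prokineticin 2, measured 0.167, 0.224 and 0.0751 FPKM in Tet1-deficient libraries and 0.260, 0.236 and 0.259 FPKM in wild-type libraries. Among 26 precursor genes above 0 and under the 1 FPKM mean, these were the 2 whose groups did not overlap. The share without overlap was 4.13% of tested genes and 5.82% of all genes above 0, which include the tested ones. Genes under that mean therefore lay apart more often than 5.82%, and 2 of 26 is not read as more than their background.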
